A study of Arabidopsis thaliana with 4 samples.

Results

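SVP, FLM, SOC1, AGL24 and AGL44 encode transcription factors of the MADS-box family, and their transcripts were followed in whole Arabidopsis thaliana seedlings between 2 and 6 days after germination (dpg). The genes were chosen by locus: AT2G22540 (SVP), AT1G77080 (FLM, also called MAF1 or AGL27), AT2G45660 (SOC1, also AGL20), AT4G24540 (AGL24) and AT2G14210 (AGL44, also ANR1). All 5 were found among the 26784 genes of the deposited read count table. The study has 4 libraries of total RNA from wild-type Col-0 seedlings, 2 of 2 dpg and 2 of 6 dpg. All seedlings grew from cold-stratified seeds at 22 °C under a 12-h photoperiod, on half-strength Murashige and Skoog medium containing 0.5% sucrose, and no other genotype or treatment was used. The stated aim of the series is to find transcription factor genes whose expression changes in young seedlings. Whether replicate libraries stem from different plantings is not labelled, and the p-values reflect the variation among the 4 libraries alone, part or all of which may be technical.

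MADS-box factors bind DNA as dimers at CArG boxes. SVP (short vegetative phase) and FLM (flowering locus M) are partners that hold flowering back, in part by repressing the florigen gene FT and SOC1, and FLM ties this to ambient temperature through alternative splicing. SOC1 gathers signals from day length, age and gibberellin and promotes flowering together with AGL24, a close relative of SVP. AGL44 acts in roots, where it takes part in the stimulation of lateral root growth by nitrate.

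The first 180 coding bases, which encode the DNA-binding region shared by the family, are shown because they give the kinship of the 5 genes and bear on whether their reads can be told apart. They were read from the RefSeq TAIR10.1 genome and annotation, each from a single exon, 5′ to 3′ on the coding strand. For each gene the mRNA with the longest coding sequence was taken. Over all annotated mRNAs, FLM has 3 different starts of this length, SVP 2, and SOC1, AGL44 and AGL24 have 1 each. Capitals mark the 81 bases that are the same in all 5 genes.
SVP (chr2:9580417-9580596, plus strand): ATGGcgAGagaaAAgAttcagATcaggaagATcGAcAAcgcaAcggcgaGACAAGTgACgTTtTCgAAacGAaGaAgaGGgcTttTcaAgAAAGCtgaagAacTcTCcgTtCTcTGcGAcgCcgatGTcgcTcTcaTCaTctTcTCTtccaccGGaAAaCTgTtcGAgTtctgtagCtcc
AGL24 (chr4:12673466-12673645, minus strand): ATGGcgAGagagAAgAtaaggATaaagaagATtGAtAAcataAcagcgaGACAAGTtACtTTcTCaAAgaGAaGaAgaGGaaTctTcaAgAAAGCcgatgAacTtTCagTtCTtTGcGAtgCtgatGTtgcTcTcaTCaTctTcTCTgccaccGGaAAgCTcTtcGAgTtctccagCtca
SOC1 (chr2:18810014-18810193, minus strand): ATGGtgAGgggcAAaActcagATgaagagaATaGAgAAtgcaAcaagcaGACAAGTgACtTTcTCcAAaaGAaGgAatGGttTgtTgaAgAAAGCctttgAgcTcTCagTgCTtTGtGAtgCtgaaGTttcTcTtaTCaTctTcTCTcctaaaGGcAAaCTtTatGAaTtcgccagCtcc
AGL44 (chr2:6018841-6019020, plus strand): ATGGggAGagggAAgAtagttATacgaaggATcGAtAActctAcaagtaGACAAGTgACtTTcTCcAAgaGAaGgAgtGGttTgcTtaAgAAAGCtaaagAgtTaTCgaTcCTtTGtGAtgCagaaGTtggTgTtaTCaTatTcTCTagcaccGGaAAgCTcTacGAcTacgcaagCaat
FLM (chr1:28955679-28955858, plus strand): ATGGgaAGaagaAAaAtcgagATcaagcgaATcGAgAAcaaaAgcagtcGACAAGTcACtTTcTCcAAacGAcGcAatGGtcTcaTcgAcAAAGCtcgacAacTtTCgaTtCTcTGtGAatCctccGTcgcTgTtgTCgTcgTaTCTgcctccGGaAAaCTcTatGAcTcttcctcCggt

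SVP and AGL24, a repressor and an activator of flowering, were the most alike in this stretch, with 146 of 180 bases the same (81.1%). FLM stood farthest from the others, at 61.7 to 63.3%. Over the longest annotated coding sequence of each gene, the longest exact run shared by any pair was 20 bases, between AGL44 and SOC1. No stretch of 50 bases in the annotated mRNAs of SVP, SOC1, AGL24 or AGL44 occurred in an mRNA of another gene. For FLM 12 of 4807 such stretches (0.25%) also occurred in MAF3 (AT5G65060), a relative on chromosome 5 whose counts were not analysed here. The read length is not given in the sources used here. None of the 5 genes overlapped another gene of the count table. RefSeq annotates 11 mRNAs for FLM, 3 for SVP, 2 each for SOC1 and AGL44 and 1 for AGL24, and the counts are sums over all transcripts of a gene.

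The libraries held 18330153 (6 dpg replicate 2) to 26570983 reads (2 dpg replicate 1), as recovered from the authors' FPKM. The rows held, on chromosomes 1 to 4 and chromosome 5 up to position 3070933, make up 79.9 to 81.0% of them. A count of 3 reads corresponds to 0.113 to 0.164 CPM, a count scaled to library size. Such floors, and the exact intervals given for ratios of reads, cover counting error only.

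Transcripts of SVP, SOC1, AGL24 and AGL44 were more abundant at 6 than at 2 dpg, by 2.49-fold (SOC1) to 7.58-fold (AGL44), and FLM did not pass the test. CPM were scaled with TMM factors, and fold changes are 6 dpg relative to 2 dpg from edgeR's quasi-likelihood test, called at an adjusted p under 0.05. Of the 16160 genes tested, 56.6% were called, 28.3% higher and 28.4% lower. Of the 5 genes, 4 were called higher and none lower. AGL44 and AGL24 reached the test's minimum count of 10 reads only through the 6 dpg libraries, so these 4 calls are given gene by gene and not as a share.

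**Figure D1:**
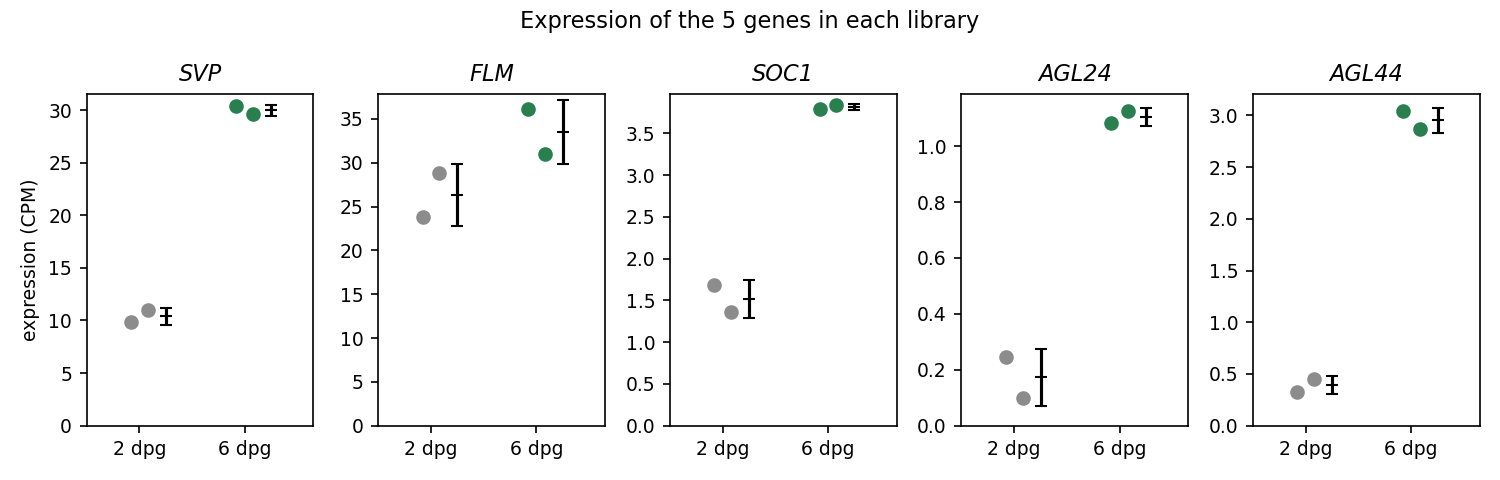
Expression of SVP, FLM, SOC1, AGL24 and AGL44 in CPM, each on its own axis from 0; points are the 4 libraries (grey 2 dpg, green 6 dpg) and bars the mean ± SD of the 2 libraries of an age. The ages stand apart in every panel, least for FLM, where the highest 2 dpg library is at 28.9 and the lowest 6 dpg library at 31.0 CPM.

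Of the repressors, SVP rose, and FLM had more reads than any of the other 4 genes in every library. SVP (chromosome 2, 9579874 to 9583893 in the table of the authors) had 240 and 218 reads in the 2 dpg libraries and 730 and 579 in the 6 dpg libraries. In CPM these were 9.83 and 11.0 at 2 dpg, and 30.4 and 29.6 at 6 dpg. Both 6 dpg libraries were far above both 2 dpg libraries, and the libraries of an age lay close together (10.4 ± 0.796 and 30.0 ± 0.525 CPM, SD, n = 2). SVP rose by log2 1.53 ± 0.126 (SE, edgeR adjusted p = 3.05e-05; 95% interval 1.25 to 1.82). Of all tested genes, 5.2% had a larger log2 fold change. In the authors' deposited table the adjusted p of SVP is 4.08e-14.

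FLM (chromosome 1, 28955637 to 28960096) had 582 and 574 reads at 2 dpg and 868 and 605 reads at 6 dpg. Its levels were 23.8 and 28.9 CPM at 2 dpg and 36.1 and 31.0 CPM at 6 dpg. The 6 dpg libraries were above the 2 dpg libraries, by a margin smaller than the distance between the libraries of either age (26.3 ± 3.54 and 33.5 ± 3.65 CPM, SD, n = 2). In 40.4% of all tested genes both 6 dpg libraries were above both 2 dpg libraries. The log2 fold change of FLM was 0.35 ± 0.141 (SE, edgeR adjusted p = 0.0599; 95% interval 0.03 to 0.67), and the adjusted p in the authors' deposited table is 0.0762. Without 2 dpg replicate 2 the change was called (log2 0.49, edgeR adjusted p = 0.0116), and without 2 dpg replicate 1 it was 0.22 (adjusted p = 0.18). The gene counts do not separate the splice forms of FLM.

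The activators had fewer reads. SOC1 (chromosome 2, 18807538 to 18811047, minus strand) had 41 and 27 reads at 2 dpg and 91 and 75 reads at 6 dpg, or 1.68 and 1.36 CPM against 3.79 and 3.84 CPM. The 6 dpg libraries nearly coincided and were both above the higher 2 dpg library (1.52 ± 0.228 and 3.81 ± 0.0367 CPM, SD, n = 2). SOC1 rose by log2 1.32 ± 0.246 (SE, edgeR adjusted p = 0.00189; 95% interval 0.76 to 1.87). The authors' deposited table gives it an adjusted p of 0.00195.

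AGL24 (chromosome 4, 12670965 to 12674072, minus strand) had the fewest reads of the 5 genes, 6 and 2 reads at 2 dpg and 26 and 22 reads at 6 dpg, or 0.246 and 0.101 CPM against 1.08 and 1.13 CPM. The 2 dpg level rests on 8 reads in all, and 2 dpg replicate 2 was under the floor of 3 reads. The ratio of the scaled reads was 6.10, with a 95% exact interval of 2.86 to 14.9 for counting error. In edgeR AGL24 rose by log2 2.58 ± 0.498 (SE, adjusted p = 0.00226; 95% interval 1.45 to 3.71). The change was 3.38 without 2 dpg replicate 1 and 2.13 without 2 dpg replicate 2, called in both cases (adjusted p = 0.00704 and 0.018). The authors' deposited table gives an adjusted p of 0.00469.

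AGL44, the root factor, had the largest change of the 5 with all libraries, whereas without 2 dpg replicate 1 that of AGL24 was larger (log2 3.38 against 2.70). AGL44 (chromosome 2, 6018558 to 6023863) had 8 and 9 reads at 2 dpg and 73 and 56 reads at 6 dpg. Its levels were 0.328 and 0.452 CPM at 2 dpg and 3.04 and 2.87 CPM at 6 dpg, so that every 6 dpg library was several times above every 2 dpg library. AGL44 rose by log2 2.92 ± 0.335 (SE, edgeR adjusted p = 0.000144; 95% interval 2.16 to 3.68), and 1.1% of tested genes had a larger log2 fold change. The scaled reads differed 7.72-fold, with a 95% exact interval of 4.64 to 13.7. The authors' deposited table gives an adjusted p of 1.05e-07. With every gene of at least 1 read kept in the test, AGL44 and AGL24 were also called (log2 2.92 and 2.59, edgeR adjusted p = 2.42e-13 and 0.000125).

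Fold changes in these libraries follow gene length. Genes within 20% of the length of FLM, AGL24, AGL44, SOC1 and SVP had median log2 fold changes of -0.22, -0.15, -0.14, -0.07 and -0.04, opposite in sign to the changes of the 5 genes. When the trend with length was removed from each library, FLM passed the test (log2 0.51, edgeR adjusted p = 0.0108) and the other 4 genes stayed at log2 1.35 to 3.01.

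**Figure D2:**
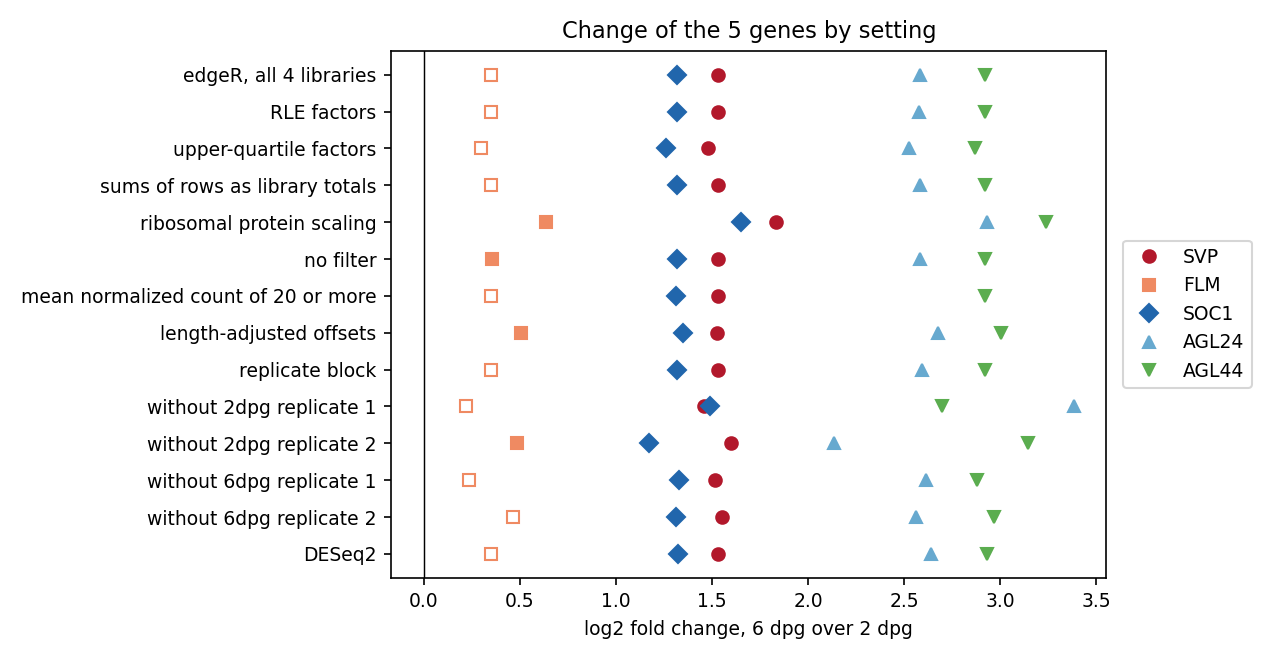
Log2 fold change (6 dpg over 2 dpg) of the 5 genes under each normalization, filter, test or left-out library; filled symbols have an adjusted p under 0.05. All values are above 0, and FLM alone lies on either side of the threshold, between 0.22 and 0.64.

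The order of the levels was set from the authors' FPKM, which divide reads by gene length. At 2 dpg FLM stood highest, at 28.5 and 36.3 FPKM, followed by SVP at 5.85 and 6.85 FPKM and SOC1 at 1.17 and 0.994 FPKM. AGL44 followed at 0.275 and 0.399 FPKM and AGL24 at 0.214 and 0.0923 FPKM. AGL44 and AGL24 are the neighbours in this order that the 2 dpg libraries separate least, with 17 and 8 reads behind them. At 6 dpg the order was the same, with FLM at 49.6 and 42.9, SVP at 20.8 and 20.4, SOC1 at 3.03 and 3.10, AGL44 at 2.93 and 2.79 and AGL24 at 1.09 and 1.14 FPKM. SOC1 and AGL44 were then close, at 3.07 ± 0.0486 and 2.86 ± 0.0996 FPKM (SD, n = 2). The FPKM of FLM correspond to a length of 769 bases, whereas the table lists 892, so its level per length depends on the transcript length taken.

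**Figure D3:**
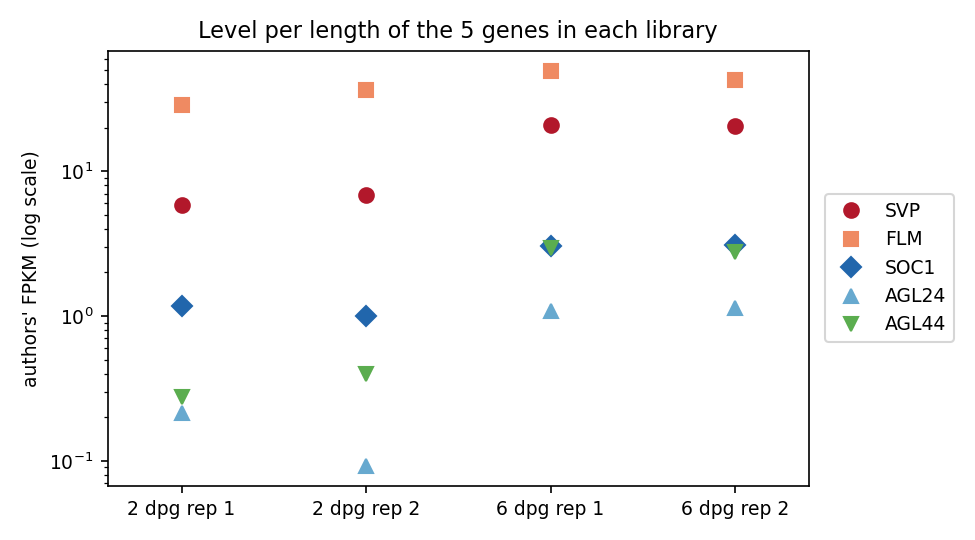
Level per length of the 5 genes in each library, in the authors' FPKM on a log axis. FLM and SVP stand above the other 3 genes in all 4 libraries, and AGL44 lies between SOC1 and AGL24 at 2 dpg and close to SOC1 at 6 dpg.

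The balance among the 5 transcripts differed between the ages. SVP stood at 0.205 and 0.189 of the FLM level (ratio of FPKM) in the 2 dpg libraries and at 0.419 and 0.476 in the 6 dpg libraries. FLM made up 79.2 and 81.3% of the summed FPKM of the 5 genes at 2 dpg and 64.1 and 61.0% at 6 dpg. The share of SVP was 16.3 and 15.4% at 2 dpg against 26.8 and 29.0% at 6 dpg. The ratio of the activator SOC1 to the repressor SVP was 0.200 and 0.145 at 2 dpg and 0.146 and 0.152 at 6 dpg, so the 6 dpg values lay within the range of the 2 dpg values. The ratio of AGL24 to SOC1 was 0.183 and 0.0929 at 2 dpg and 0.358 and 0.368 at 6 dpg. These ratios and shares are descriptions, and no test was run on them.

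By the Euclidean distance between centred log2 CPM over the 4 libraries, the gene closest to SVP among 8231 named genes was DIN2 (AT3G60140), at 2.29 and 2.61 CPM and then 7.49 and 7.01 CPM, followed by PEPKR1. CHR18 (AT1G48310) and OHP2 were closest to FLM, and TCX5 (AT4G29000) and BCAT-1 to SOC1. For AGL44 they were HSPRO2 (AT2G40000), at 80.2 and 102 CPM and then 589 and 579 CPM, and RFK1. CBP60D and ARCK1 were closest to AGL24, at distances of 0.287 and 0.352, larger than the 0.0244 to 0.128 of the other pairs. With 2 ages, likeness means a like change and a like spread between replicates.

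Other MADS-box genes were also followed. The second deposited table assigns 22 genes to the family, of which 16 are in the count table, the 5 genes and 11 others. How its genes were selected is unknown. AP1 and CAL, MADS-box genes that are in the count table, are not among the 11. The set is thus partial, and its counts and median describe these genes and not the family. Of the 11, 9 were tested, 7 rose and none fell (median log2 fold change 1.2, against 0.00 for all tested genes, of which 28.3% rose and 28.4% fell). AGL17, among the 7, had 14 and 7 reads at 2 dpg and passed the filter through the 6 dpg libraries, so the count is not free of the filter. SEP3 (AT1G24260) and SEP4 (AT2G03710), known as floral organ identity genes, both rose, SEP3 from 0.629 ± 0.0370 to 3.42 ± 0.346 CPM and SEP4 from 2.71 ± 0.0718 to 7.87 ± 0.929 CPM (SD, n = 2; log2 2.43 and 1.54, edgeR adjusted p = 0.000185 and 0.000243). AGL65 (AT1G18750), known as a pollen factor, rose from 1.37 ± 0.549 to 6.87 ± 0.166 CPM (log2 2.35, edgeR adjusted p = 0.000149). AGL16 had the most reads of the 11, at 12.9 ± 0.748 and 21.6 ± 4.12 CPM. AGL12, a root gene, stood at 1.95 ± 0.133 and 1.91 ± 0.241 CPM (edgeR adjusted p = 0.933). The count of 7 was 6 without 2 dpg replicate 2, 5 without 6 dpg replicate 1 and 8 without 6 dpg replicate 2.

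**Figure D4:**
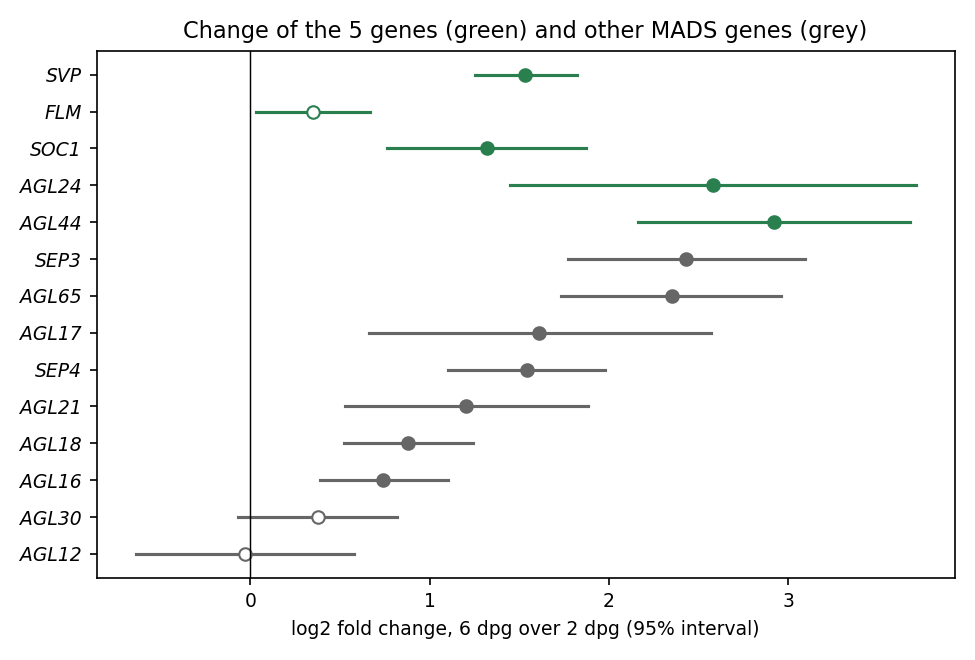
Log2 fold change with its 95% interval for the 5 genes (green) and the 9 other tested genes that the second deposited table assigns to the MADS-box family (grey). Filled points have an edgeR adjusted p under 0.05. AGL12, at -0.03, is the lowest point.

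FT, AP1 and CAL were at or near the detection limit. FT (AT1G65480), the florigen gene, had 0 reads at 2 dpg and 2 reads over both 6 dpg libraries. The meristem identity genes AP1 and CAL, which act after the floral switch, each had 0 reads at 2 dpg and 3 reads at 6 dpg. These levels are at or under the floor of 3 reads and allow no comparison of the ages. FD (AT4G35900), the bZIP partner of FT, was at 0.573 ± 0.114 and 1.30 ± 0.460 CPM (log2 1.21, edgeR adjusted p = 0.0328), and this call was lost when either 2 dpg library or 6 dpg replicate 1 was left out (adjusted p = 0.169 without 2 dpg replicate 1, 0.0657 without 2 dpg replicate 2 and 0.318 without 6 dpg replicate 1) and in DESeq2 (adjusted p = 0.137). MFT, an FT relative known from seed germination, rose by log2 1.44. ATC, a relative of the FT antagonist TFL1, stood at 16.3 ± 0.904 and 16.8 ± 3.46 CPM. Of 9 genes of this list in the table, 3 were tested, 2 rose and none fell (median log2 fold change 1.21). Of all tested genes, 28.3% rose and 28.4% fell. FD, 1 of the 2, had 12 and 13 reads at 2 dpg and passed the filter through the 6 dpg libraries, so the count is not free of the filter.

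Other repressors of FT changed in both directions. Of 6 tested genes of the AP2 and TEM type, 2 rose and 3 fell (median log2 fold change -0.43). Thus 83.3% were called, against 56.6% of all tested genes, of which 28.3% rose and 28.4% fell. TEM1 (AT1G25560) rose from 66.9 ± 1.05 to 152 ± 5.54 CPM, and TEM2 (AT1G68840) was at 128 ± 5.47 and then 212 ± 18.6 CPM (edgeR adjusted p = 5.74e-05 and 0.000948). The AP2-type genes TOE1 (AT2G28550), SMZ (AT3G54990) and SNZ (AT2G39250) fell from 97.8 ± 5.09 to 50.6 ± 0.643, from 37.4 ± 0.153 to 19.0 ± 2.13 and from 18.3 ± 2.67 to 9.40 ± 0.527 CPM. AP2 stood at 16.2 ± 1.47 and 17.2 ± 0.169 CPM (edgeR adjusted p = 0.571).

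Of 7 tested photoperiod genes 3 rose and none fell (median log2 fold change 0.21). Thus 42.9% were called, against 56.6% of all tested genes, of which 28.3% rose and 28.4% fell. The Dof repressor gene CDF3 rose from 31.3 ± 5.78 to 107 ± 5.25 CPM, and CDF5, of the same group, from 0.928 ± 0.0380 to 3.17 ± 0.365 CPM. COP1, the ligase that removes CONSTANS, rose by log2 0.51, a call lost without 6 dpg replicate 1 or 6 dpg replicate 2 (edgeR adjusted p = 0.0647 and 0.0555) and with length-adjusted offsets (0.0694). CONSTANS itself lies on the stretch of chromosome 5 not analysed here. GI, its upstream regulator, was called lower without 2 dpg replicate 1 (log2 -0.70, edgeR adjusted p = 0.0229) but not with all libraries (log2 -0.39, adjusted p = 0.204). With length-adjusted offsets GI and SPA1 were lower. The hour of collection is not given in the labels, so for genes with a daily rhythm, such as GI, CDF3 and CDF5, age and harvest time cannot be told apart.

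In the autonomous pathway, which represses the MADS-box gene FLC, 4 of 7 tested genes rose and none fell (median log2 fold change 0.60). Thus 57.1% were called, against 56.6% of all tested genes, of which 28.3% rose and 28.4% fell. LD (AT4G02560), a homeodomain gene, rose from 12.2 ± 2.97 to 27.4 ± 1.56 CPM, and REF6, a histone demethylase gene, from 20.2 ± 5.30 to 38.4 ± 3.42 CPM. FCA and FPA, both for RNA-binding proteins, rose by log2 0.79 and 0.60, but lost their calls with length-adjusted offsets (log2 0.23 and 0.16, edgeR adjusted p = 0.135 and 0.281). FLK stood at 45.0 ± 1.46 and 45.5 ± 4.19 CPM. Of 10 tested genes of the FRI complex and Polycomb, 4 rose and none fell (median 0.35), so that 40.0% were called. FRL2 did not pass the test (log2 0.51, edgeR adjusted p = 0.0567). It was called higher with no filter, with a replicate block and with scaling to the counts of cytosolic ribosomal protein genes (edgeR adjusted p = 0.0183, 0.0438 and 0.0207). Without 2 dpg replicate 2 the log2 fold change of FRL2 was larger, at 0.76. CLF and SWN, for histone methyltransferases of Polycomb, both rose, CLF from 21.1 ± 1.70 to 36.0 ± 0.603 CPM and SWN from 25.9 ± 5.71 to 44.9 ± 1.84 CPM. FRI (AT4G00650) rose by log2 0.60, a call lost without 6 dpg replicate 2 (edgeR adjusted p = 0.0581), and SUF4 by 0.46, a call lost without 6 dpg replicate 1 (0.133). FIE was called lower without 2 dpg replicate 2 (log2 -0.50, edgeR adjusted p = 0.0164) and VIL1 with length-adjusted offsets (log2 -0.33, adjusted p = 0.0371).

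The splicing factor genes linked to FLM moved both ways, 2 up and 2 down of 4 tested. Of all tested genes, 28.3% rose and 28.4% fell. U2AF65A (AT4G36690) and U2AF65B (AT1G60900), which encode the large subunits of a factor that recognises the end of introns, both rose, U2AF65A from 100 ± 15.5 to 157 ± 14.1 CPM and U2AF65B from 41.2 ± 7.05 to 65.2 ± 2.95 CPM. GRP7 (AT2G21660), for a clock-regulated RNA-binding protein, fell from 306 ± 77.6 to 121 ± 1.30 CPM (log2 -1.34, edgeR adjusted p = 0.000241). Its relative GRP8 fell from 161 ± 10.1 to 103 ± 0.536 CPM, a call lost with scaling to the counts of cytosolic ribosomal protein genes (edgeR adjusted p = 0.196). For GRP7 and GRP8, too, age and harvest time cannot be told apart.

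SPL genes, age-dependent activators of SOC1, were low. SPL9 stood at 1.88 ± 0.112 and 1.12 ± 0.294 CPM (edgeR adjusted p = 0.0683) and SPL3 had 1 read in all. SPL4 rose from 0.554 ± 0.144 to 1.69 ± 0.506 CPM and SPL15 fell from 2.64 ± 0.668 to 1.04 ± 0.346 CPM. SPL4 had 16 and 9 reads at 2 dpg and passed the filter through the 6 dpg libraries. The call of SPL4 was lost without 6 dpg replicate 2 (edgeR adjusted p = 0.0715), and that of SPL15 without 2 dpg replicate 2 or 6 dpg replicate 1 (0.0553 and 0.0511). Over the flowering lists together, 40 genes were tested, 18 rose and 6 fell (median log2 fold change 0.22). In either direction 60.0% were called, near the 56.6% of all tested genes, of which 28.3% rose and 28.4% fell. FD and SPL4, among the 18, passed the filter through the 6 dpg libraries. With length-adjusted offsets fewer genes rose and more fell. COP1, FCA and FPA then lost their calls, and GI, SPA1 and VIL1 were called lower.

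**Figure D5:**
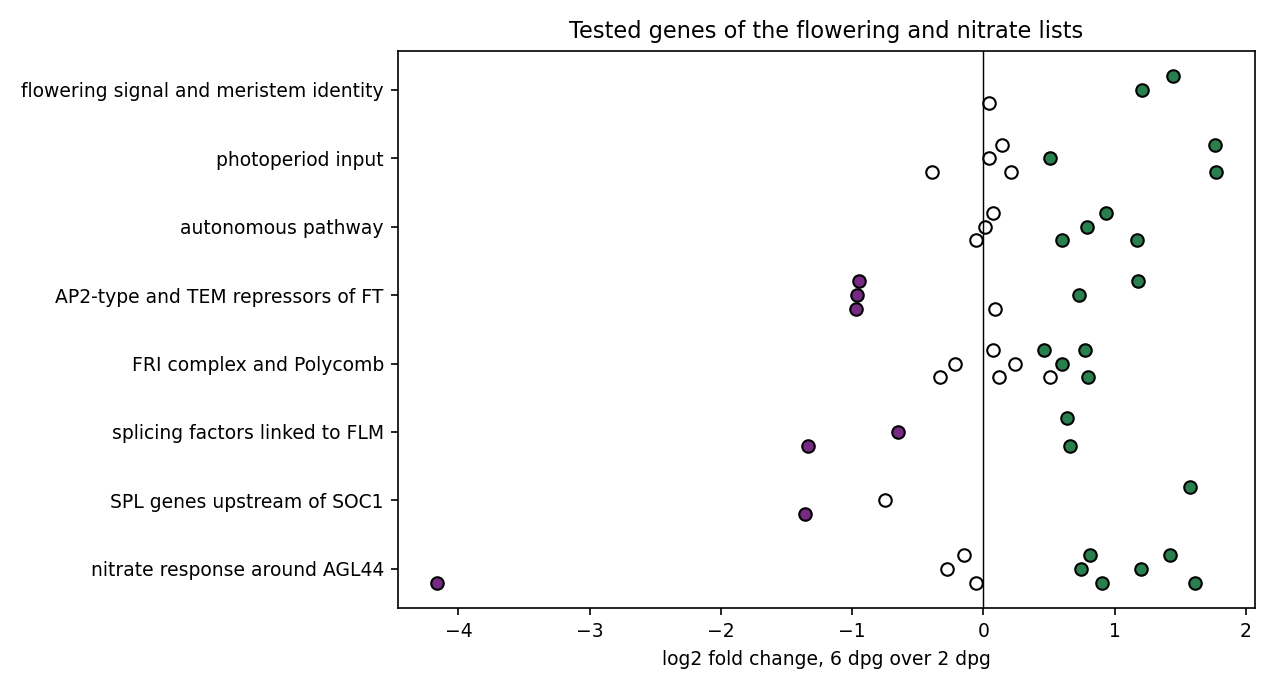
Log2 fold change (6 dpg over 2 dpg) of the tested genes of each flowering list and of the nitrate list; green points were called higher, purple points lower, and open points were not called (edgeR adjusted p). Most called points lie above 0, and the falls are in the lists of FT repressors, splicing factors, SPL genes and, at -4.16, the nitrate transporter gene NRT2.1.

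Around AGL44, 6 of 10 tested genes of the nitrate list rose and 1 fell (median log2 fold change 0.78). Thus 70.0% were called, against 56.6% of all tested genes, of which 28.3% rose and 28.4% fell. NLP7 (AT4G24020), the main nitrate-responsive activator, rose from 46.4 ± 5.79 to 86.5 ± 3.78 CPM, and BT2 (AT3G48360), for a nitrate-induced BTB protein, from 257 ± 51.6 to 685 ± 61.7 CPM. AGL16, AGL17 and AGL21, all among the 6, are also counted in the partial MADS-box set above. AGL17 had 14 and 7 reads at 2 dpg and passed the filter through the 6 dpg libraries, so the count is not free of the filter. AGL21 (AT4G37940), a lateral root factor, rose from 1.02 ± 0.0134 to 2.33 ± 0.406 CPM, and AGL17 (AT2G22630) from 0.463 ± 0.157 to 1.44 ± 0.440 CPM. The call of AGL21 was lost without 6 dpg replicate 1 (edgeR adjusted p = 0.0706), and that of AGL17 without 2 dpg replicate 2 or 6 dpg replicate 1 (0.0624 and 0.111). NRT2.1 (AT1G08090), a high-affinity nitrate transporter gene, fell, with 78 reads summed at 2 dpg and 4 summed at 6 dpg, and passed the filter through the 2 dpg libraries. The nitrate sensor and transporter gene NRT1.1, which acts upstream of AGL44, stood at 195 ± 41.5 and 187 ± 30.4 CPM (edgeR adjusted p = 0.772). With length-adjusted offsets AFB3 and NIA1 were called lower too.

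Tissue markers moved between the ages, to be read against the 28.4% of all tested genes that fell and the 28.3% that rose. Root markers fell in 6 of 8 tested cases, and their summed level was 254 and 224 CPM at 2 dpg and 99.5 and 92.3 CPM at 6 dpg, while the root gene AGL44 rose. None of these root markers was at 0. Among the 6, WOX5 had 7 and 13 reads at 6 dpg and passed the filter through the 2 dpg libraries. SHR, also among them, lost its call under ribosomal protein scaling (edgeR adjusted p = 0.41). SCR, not among them, was called lower with length-adjusted offsets (edgeR adjusted p = 0.00377). Shoot apex markers fell in 3 of 5 tested cases, with sums of 88.4 and 89.8 CPM against 62.2 and 73.7 CPM. Of the 3, only CUC3, which passed the filter through the 2 dpg libraries, kept its call without 6 dpg replicate 1 and under ribosomal protein scaling. The call of KNAT1 was also lost without 2 dpg replicate 2 (edgeR adjusted p = 0.0601). That of CLV1 was also lost without 2 dpg replicate 1 or 6 dpg replicate 2, with RLE factors, with a replicate block and in DESeq2 (adjusted p = 0.0507 to 0.1). WUS had 0 reads at 2 dpg and 2 and 1 reads at 6 dpg. CLV3 had 4 and 8 reads at 2 dpg and 0 at 6 dpg. Neither gene was tested. Both tested phloem companion cell markers rose, with sums of 93.5 and 87.1 CPM against 114 and 138 CPM, although the call of SUC2 was lost without 6 dpg replicate 2 (edgeR adjusted p = 0.287) and with length-adjusted offsets (0.057). Seed reserve transcripts summed to 0.410 and 2.66 CPM at 2 dpg and 0.0832 and 0.102 CPM at 6 dpg. The part of tissue makeup in the changes of the 5 genes was not tested. In whole seedlings, a different number of cells of a type and a different amount of RNA per cell cannot be told apart.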

How the data were processed

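Whole-seedling RNA was sequenced by the authors in 4 libraries. Per the labels' protocols, TRIzol RNA went into NEBNext Ultra libraries, a kit without strand marking. The submitters' processing notes name DESeq 1.18.0, HTSeq 0.6.1, TopHat2 2.0.12, Bowtie2 2.2.3 and CASAVA 1.8 without their roles. Which genome build and annotation were used is not stated there. Per the file headers, the deposited table holds a read count and an FPKM per gene and library, besides a p-value and its adjusted form from a test by the authors. Coordinates of genes are those of the authors' table, and sequences with their coordinates are from RefSeq TAIR10.1, by locus.

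Library totals were recovered as count divided by FPKM and listed length: 66.7 to 67.8% of genes with over 200 reads gave the same total within 0.01%. Counts were tested with edgeR 4.0.16 in R 4.3.3 (quasi-likelihood test with age as term, TMM factors on those totals, filterByExpr at 10 reads or more, Benjamini-Hochberg adjustment over 16160 genes; 10624 were removed). The SE is the log2 fold change divided by the root of the F statistic, and 95% intervals use its t quantile. The biological coefficient of variation was 11%. The test was checked on counts simulated from the mean levels and fitted dispersions of these data. Far fewer genes were changed there than were called here, so the check does not probe the scaling. Between replicates, chi-square per degree of freedom (16.5 at 2 dpg, 6.01 at 6 dpg) was above sampling noise, and each library was counted as its own sample. The alternatives were DESeq2 1.42.0, other scalings (1 of them on 182 cytosolic ribosomal protein genes), other filters, length-adjusted offsets, a replicate block and leaving out each library. The 5 genes and the gene lists were chosen with earlier results of these data known. Named were the 5 genes, per list at most 3 called genes of each direction, by size of change, FT and the gene with the highest level; other list genes were named after their values were seen. Likeness used log2(CPM + 0.1) of genes with a symbol and a mean normalized count of 20 or more. Of 87 list entries, 79 were in the table.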

Additional observations from a re-analysis of the deposited data

How the results depend on the processing

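The log2 fold changes of SVP, SOC1, AGL24 and AGL44 stayed above 0 and called under every alternative that gave a value; AGL24 gave none at a minimum mean normalized count of 20. Without each library in turn they were 1.46 to 1.60 for SVP, 1.17 to 1.49 for SOC1, 2.13 to 3.38 for AGL24, 2.70 to 3.14 for AGL44 and 0.22 to 0.49 for FLM. FLM passed the test with no filter (0.35, edgeR adjusted p = 0.034), with length-adjusted offsets (0.51) and under ribosomal protein scaling (0.64, adjusted p = 0.0251); its adjusted p ran from 0.0108 to 0.359 over the alternatives, and the cause was not tested. Ribosomal protein scaling moved the median of all genes by 0.31, so relative to it the change of FLM was near that under TMM; 2102 genes were then lower and 5413 higher, against 4585 and 4568. DESeq2 called 3851 genes higher and 3861 lower. Same-numbered libraries are not said to be paired, and their deviations from the age means correlated at -0.0425 over 15076 genes. With a replicate block the log2 fold changes were 1.53 for SVP, 1.32 for SOC1, 2.59 for AGL24, 2.92 for AGL44 and 0.35 for FLM, with no change of call among them, and 4555 genes were higher and 4544 lower. Depth limits AGL24 and AGL44 at 2 dpg, with 8 and 17 reads, and FT, AP1 and CAL at both ages.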

Other observations

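The CArG box, the motif that MADS-box factors bind, was searched on both strands in the 300 bases around each gene start (250 before, 50 after) of RefSeq TAIR10.1. It was in none of the 5 windows and in 837 of 27443 windows of coding genes (3.05%), which says only that these letters are not in these windows. Introns were read from the mRNA with the longest coding sequence of each gene. In SVP, SOC1, AGL24 and AGL44 the longest intron is the second, of 907, 1002, 714 and 2134 bases. In FLM it is the first, of 2470 bases.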
